A study of Mus musculus with 10 samples.

Results

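The MYC, MAX and MXD network was followed in mouse neuroblastomas through 10 genes, Mycn, Myc, Mycl1, Max, Mxd1, Mxi1, Mxd3, Mxd4, Mnt and Mga. Its members were chosen by gene name on the array. They are read by 12 probes (13 spots, since the Myc probe is spotted more than once) out of 55681 distinct probes, and 11 of the 12 were among the 30857 probes well above background on at least 5 of the 10 arrays. Tumours of 5 ALK/MYCN mice, labelled ALK+/-, MYCN+/- and which carry MYCN together with the F1174L form of ALK, a receptor tyrosine kinase gene, were set against tumours of 5 MYCN mice, labelled MYCN+/-. All tumours were untreated, and the MYCN transgene is common to both groups. The genetic background was C57BL/6 x 129X1/SvJ for ALK/MYCN and 129X1/SvJ for MYCN mice, and background and ALK genotype cannot be told apart. The labels name neither the promoter nor the species of the transgenes and give no age. In the widely used mouse model of MYCN-driven neuroblastoma, the transgene is human MYCN under a tyrosine hydroxylase promoter. Each value below is a log2 ratio of a tumour (Cy3) over a reference RNA pooled from 11 mouse cell lines (Cy5) on a two-colour Agilent array, so that levels of different probes cannot be set against each other. A probe is called where limma with Benjamini-Hochberg adjustment over all 30857 probes gave an adjusted p under 0.05.

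MYC proteins are transcription factors of the basic helix-loop-helix leucine zipper class. They bind DNA as dimers with MAX at the sequence CACGTG, called the E-box, and activate genes of growth and proliferation. MXD proteins, MXI1, MNT and MGA also pair with MAX and bind the same sequence, but bring repressor complexes to it. In neuroblastoma, amplification of MYCN marks aggressive disease.

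The sequences behind the main values are shown first, since most genes of the network rest on a single probe of 60 bases. The Myc probe (mm9 chr15:61821417-61821476, plus strand) covers the end of the coding sequence. Its stop codon is in capitals and 13 bases follow it. Of the other probes 30 bases are given. The Mycn probe lies at mm9 chr12:12943193-12943252, minus strand. The Mxd1 probes lie at mm9 chr6:86599053-86599112 and chr6:86597190-86597249, minus strand, with starts 1863 bases apart in the transcript. The Mxd4 probes lie at mm9 chr5:34519323-34519382 and chr5:34519276-34519335, minus strand, and share the 13 bases in capitals, so that they are not independent. Exons and untranslated regions on mm9 were not used here.
Myc probe: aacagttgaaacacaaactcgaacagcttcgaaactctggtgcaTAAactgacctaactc
Mycn probe, first 30 bases: tgtactaattcctacacggcctgtatactt
Mxd1 probe 1, first 30 bases: gacaccgccattctctgtgctttcattgtt
Mxd1 probe 2, first 30 bases: cgcgggtgaagaatgagaagcgcgtttcca
Mxd4 probe 1, last 30 bases: atcattccagaagtattAAATATCATTTCT
Mxd4 probe 2, first 30 bases: AAATATCATTTCTacaaatctcggcaggat

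Mycn was the member that differed most. In ALK/MYCN tumours 1 to 5 it stood at 3.26, 2.89, 3.27, 4.83 and 3.98, and in MYCN tumours 1 to 5 at 0.33, 0.40, 1.21, 0.83 and 1.24. All 10 tumours lay above the cell-line reference, the groups did not overlap, and the lowest ALK/MYCN tumour, number 2, was still well above the highest MYCN tumour, number 5. ALK/MYCN tumours averaged 3.65 ± 0.77 and MYCN tumours 0.80 ± 0.43 (mean ± SD of 5 tumours each), a rise of 2.85 ± 0.35 (SE, 95% interval 2.07 to 3.62, limma adjusted p = 7.17e-04), or 7.2-fold. Only 0.0583% of the tested probes had a larger rise. The rise was 2.56, 2.95 and 3.04 within slides 1, 2 and 3. These slide values rest on few tumours. Slide 1 held only ALK/MYCN 2 and MYCN 1, MYCN 4 was the only MYCN tumour on slide 2, and ALK/MYCN 5 the only ALK/MYCN tumour on slide 3. The probe was designed on mouse Mycn. Whether it also reads transcripts of the MYCN transgene, which both groups carry, was not determined, so the value does not say which copy differs.

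Myc and Mycl1, the other MYC genes of the network, were far below the reference in every tumour. Myc stood at -4.69, -4.33, -2.75, -3.82 and -3.81 in ALK/MYCN tumours 1 to 5 and at -4.05, -3.48, -3.74, -3.00 and -4.07 in MYCN tumours 1 to 5. The groups overlapped, with the MYCN values (-4.07 to -3.00) inside the wider ALK/MYCN range (-4.69 to -2.75). The highest values belonged to ALK/MYCN 3 and MYCN 4. Adipocyte markers were also highest in those tumours, at list means of 2.50 and 3.89, and adrenal cortex markers stood at 4.12 in ALK/MYCN 3. The part of these tissues in the Myc values was not tested. The difference was -0.21 ± 0.34 (SE, 95% interval -0.97 to 0.54, limma adjusted p = 0.687), with its sign turned to 0.071 after spike-in centring, 0.36 after scaling of the arrays and 0.47 with a covariate for stromal markers, none of them called. It was -0.49 without ALK/MYCN 3 and -0.011 without ALK/MYCN 1, the ends of the range over single tumours left out, and neither was called (limma adjusted p = 0.195 and 0.985). Mycl1 lay between -4.04 and -3.54 in ALK/MYCN tumours (median -3.78) and between -4.10 and -3.54 in MYCN tumours (median -3.77), a difference of 0.063 ± 0.13 (SE, limma adjusted p = 0.751). It was 0.65 after scaling of the arrays (adjusted p = 0.0559) and 0.34 with spike-in centring (adjusted p = 0.0763). Both probes were well above background on all 10 arrays in both channels. A Mycn rise of this size was thus not accompanied by a called change of either related gene, and the intervals leave room for changes of Myc of up to -0.97.

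**Figure D1:**
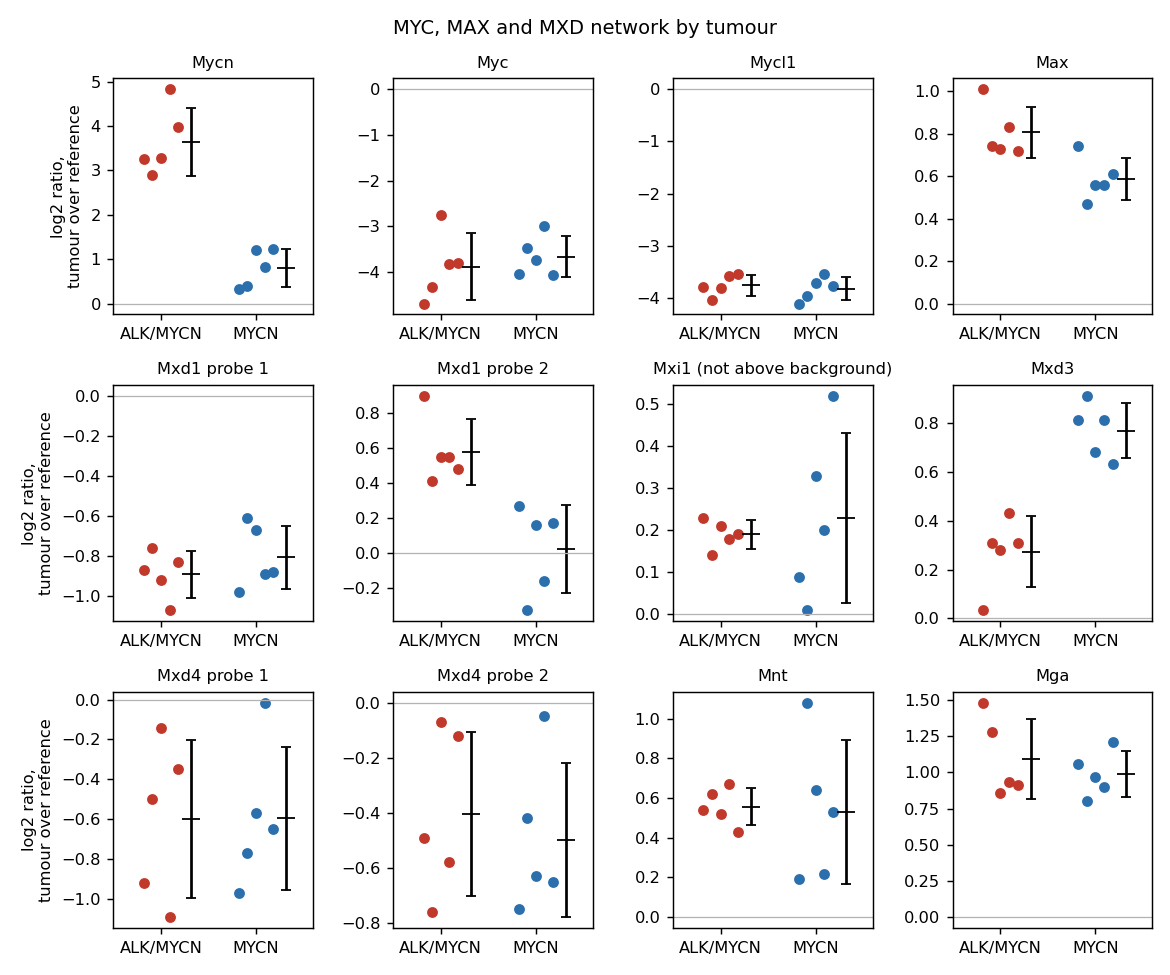
Log2 ratio of tumour over reference for the 12 probes of the network, 1 panel per probe, with ALK/MYCN tumours (red) left of MYCN tumours (blue). Points are tumours 1 to 5 of each group and the black mark gives mean and SD. Mycn, Mxd1 probe 2 and Mxd3 show no overlap between the groups.

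Max, the shared partner of all other members, was above the reference in every tumour and differed little. It stood at 1.01, 0.74, 0.73, 0.83 and 0.72 in ALK/MYCN tumours 1 to 5 and at 0.74, 0.47, 0.56, 0.56 and 0.61 in MYCN tumours 1 to 5. Only MYCN 1 reached into the ALK/MYCN range. The difference was 0.22 ± 0.079 (SE, 95% interval 0.042 to 0.39), and it missed the threshold (limma adjusted p = 0.0683). It was called with median centring (0.32, adjusted p = 0.0389), with spike-in centring (0.45, adjusted p = 0.00782) and without MYCN 1 (0.26, adjusted p = 0.0457). With the stromal covariate it was 0.089 (adjusted p = 0.528). Within slides 1, 2 and 3 it was -0.0077, 0.30 and 0.17.

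Among the MXD repressors, Mxd3 was lower in ALK/MYCN tumours. Mxd3, which unlike its relatives is expressed in dividing cells around S phase, stood at 0.033, 0.31, 0.28, 0.43 and 0.31 in ALK/MYCN tumours 1 to 5, and at 0.81, 0.91, 0.68, 0.81 and 0.63 in MYCN tumours 1 to 5. No ALK/MYCN tumour reached the lowest MYCN tumour. ALK/MYCN tumours averaged 0.27 ± 0.15 and MYCN tumours 0.77 ± 0.11 (mean ± SD of 5 tumours each), a fall of 0.50 ± 0.086 on the log2 scale (SE, limma adjusted p = 0.00331), and the differences within slides 1, 2 and 3 were -0.50, -0.56 and -0.43. It was called in each of the 25 alternatives, at -0.58 to -0.21, where the smallest size came from spike-in centring.

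Mxd1, which is induced as many cell types differentiate, gave different answers at its pair of probes. Probe 2, the one nearer the transcript end, read 0.90, 0.41, 0.55, 0.55 and 0.48 in ALK/MYCN tumours 1 to 5, and 0.27, -0.33, 0.16, -0.16 and 0.17 in MYCN tumours 1 to 5. It had no overlap between the groups and rose by 0.55 ± 0.13 (SE, limma adjusted p = 0.0139). Its differences within slides 1, 2 and 3 were 0.15, 0.82 and 0.48. Probe 1 read -0.87, -0.76, -0.92, -1.07 and -0.83 in ALK/MYCN tumours 1 to 5, and -0.98, -0.61, -0.67, -0.89 and -0.88 in MYCN tumours 1 to 5. At that probe the groups overlapped, with a difference of -0.084 ± 0.091 (SE, 95% interval -0.29 to 0.12, limma adjusted p = 0.536). Within tumours, probe 2 exceeded probe 1 by 1.47 ± 0.24 in ALK/MYCN tumours, against 0.83 ± 0.37 in MYCN tumours (SD over 5 tumours each). The gap differed by 0.64 ± 0.20 (SE) between the groups, a description that was added after the probes were seen to differ. The rise of probe 2 lost its call with slide as a block (0.52, limma adjusted p = 0.0577), when ALK/MYCN 3, MYCN 2 and MYCN 5 were all left out (0.50, adjusted p = 0.0664) and with the stromal covariate (0.32, adjusted p = 0.146). Which transcripts of Mxd1 each probe reads, and whether alleles of the mouse backgrounds differ at a probe, was not determined. Among the 4086 genes with exactly 2 kept probes, 22.8% had 1 of them called.

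**Figure D2:**
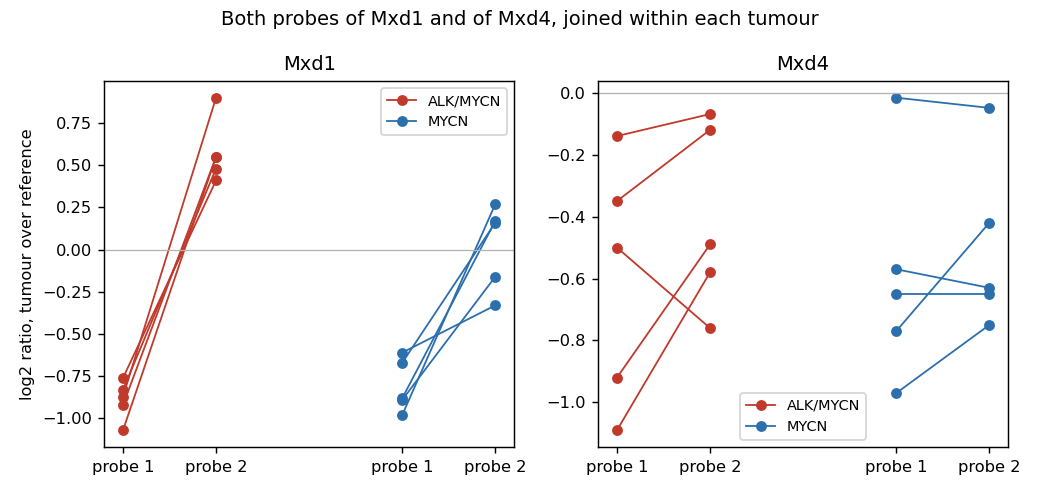
Log2 ratio of tumour over reference at both probes of Mxd1 (left panel) and of Mxd4 (right panel), joined within each tumour, with ALK/MYCN tumours (red) left of MYCN tumours (blue). The Mxd1 lines climb by 1.47 on average in ALK/MYCN and by 0.83 in MYCN tumours, while the overlapping Mxd4 probes change by 0.20 and 0.095.

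The other repressors were not called. Mxd4, a family member typical of resting and differentiated cells, differed by -0.0045 ± 0.22 at probe 1 and by 0.094 ± 0.17 at probe 2 (SE, limma adjusted p = 0.991 and 0.721). Its values ran from -1.09 to -0.14 in ALK/MYCN and from -0.97 to -0.016 in MYCN tumours at probe 1, so that the spread within a group was far larger than the difference. Both probes were highest in MYCN 4 and next highest in ALK/MYCN 3. Adipocyte markers were also highest in these tumours, at list means of 3.89 and 2.50, and their part in the Mxd4 values was not tested. Mxi1 could not be followed, since its only probe was well above background on none of the 5 ALK/MYCN arrays and on 1 of the 5 MYCN arrays.

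Mnt, a widely expressed repressor that pairs with MAX in resting and dividing cells alike, stood between 0.43 and 0.67 in ALK/MYCN tumours (median 0.54) and between 0.19 and 1.08 in MYCN tumours (median 0.53). The MYCN group was the more scattered (SD 0.36, against 0.093 in ALK/MYCN), with its top value in MYCN 2 and its lowest in MYCN 1. Markers of skeletal muscle were highest in those MYCN tumours, at a list mean of 4.91 in MYCN 2 and 2.18 in MYCN 1, and their part in the Mnt values was not tested. The difference was 0.026 ± 0.16 (SE, limma adjusted p = 0.922). Mga, the large member that joins MAX to a variant Polycomb complex, stood between 0.86 and 1.48 in ALK/MYCN and between 0.80 and 1.21 in MYCN tumours and differed by 0.10 ± 0.13 (SE, limma adjusted p = 0.614).

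**Figure D3:**
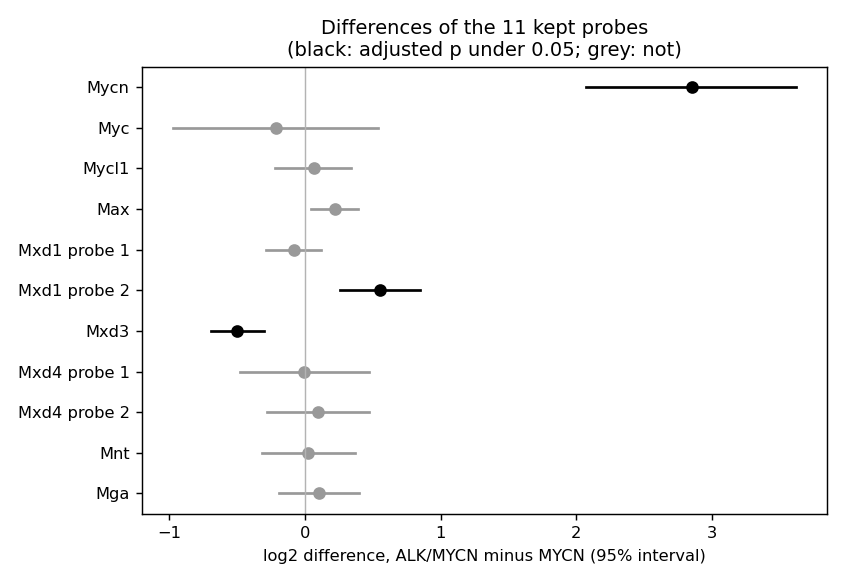
Log2 difference, ALK/MYCN minus MYCN, for the 11 kept probes with its 95% interval (bars). Black probes had a limma adjusted p under 0.05. Mycn at 2.85, Mxd1 probe 2 at 0.55 and Mxd3 at -0.50 are black, and the intervals of all grey probes except Max include 0.

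In all, 3 of the 11 probes were called, 2 higher and 1 lower in ALK/MYCN tumours, and the groups did not overlap at those 3. Over all kept probes 24.9% were called (13.7% higher and 11.2% lower), and the groups did not overlap in 18.9%. The share called in the network is near that background, so the number of members called is no result about the network. The median difference of all probes was close to 0 (3.2e-04), and spike-in centring moved it to 0.23. The higher and lower calls over the array, 4215 and 3469, then became 11753 and 1020, and with median centring 6055 and 1713.

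The arrays lay on 3 slides, each with tumours of both groups. Between 53.8% and 58.7% of the probe spots on an array had a Cy3 signal well above background, and precision is limited by how many arrays there are. The neuroblast markers Hand2, Th and Dbh were well above background on all 10 arrays. Of 12 endothelial and 12 macrophage markers, 9 each were lower in ALK/MYCN tumours, all 5 measured erythroid markers were lower, and 4 of 6 Schwann cell markers were higher. The list means ran from -0.79 to 0.073 in ALK/MYCN against -0.037 to 1.04 in MYCN tumours for endothelium, from -0.79 to -0.20 against -0.26 to 1.00 for macrophages, from -0.85 to -0.28 against -0.046 to 0.81 for erythroid cells and from 0.23 to 1.07 against -0.88 to -0.14 for Schwann cells. Adrenal cortex markers stood out in ALK/MYCN 3 at 4.12 and adipocyte markers in MYCN 4 at 3.89. In a bulk tumour, fewer cells of a type and less RNA per cell cannot be told apart.

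Max followed the stromal markers inversely from tumour to tumour. The mean of 35 fibroblast, endothelial and macrophage markers was compared with the 8 kept probes whose groups overlapped, over all 10 tumours and with permutation p-values from 100000 resamples, a comparison added after seeing the data. Max was lower where these markers were higher, with Pearson r = -0.86 (p = 7.6e-04, adjusted p = 0.00608) and Spearman rho = -0.90 (p = 8.6e-04, adjusted p = 0.00688). It stayed at r = -0.91 without MYCN 3 and MYCN 4, the pair farthest from the median of the markers. Deviations from the group means gave r = -0.75, for which no p-value was computed. The permutations ran over all 10 tumours regardless of group, so the p-values in this paragraph also take in the group difference. Myc ran the other way, with Pearson r = 0.68 (permutation p = 0.0301, adjusted p = 0.12) and Spearman rho = 0.78 (p = 0.0107, adjusted p = 0.0428). It gave 0.65 without that pair of tumours and 0.74 in deviations from the group means. The Pearson coefficient of Myc did not pass the adjustment. ALK/MYCN 3 and MYCN 4, highest in Myc, were also highest in adipocyte markers, which are not among the 35. Of the other 6 relations none passed it. Among them were Mga, with r = -0.63 and rho = -0.65 (permutation p = 0.0456 and 0.0484, adjusted p = 0.122 and 0.0968), and Mxd4 probe 1, with r = 0.56 and rho = 0.66 (permutation p = 0.0907 and 0.0425, adjusted p = 0.181 and 0.0968). In deviations from the group means Mxd4 probes 1 and 2 gave r = 0.73 and 0.72, and Mga -0.64. The slides hold 2, 4 and 4 arrays, too few for coefficients within slides. No coefficient was computed for Mycn, Mxd3 and Mxd1 probe 2, whose groups do not overlap.

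**Figure D4:**
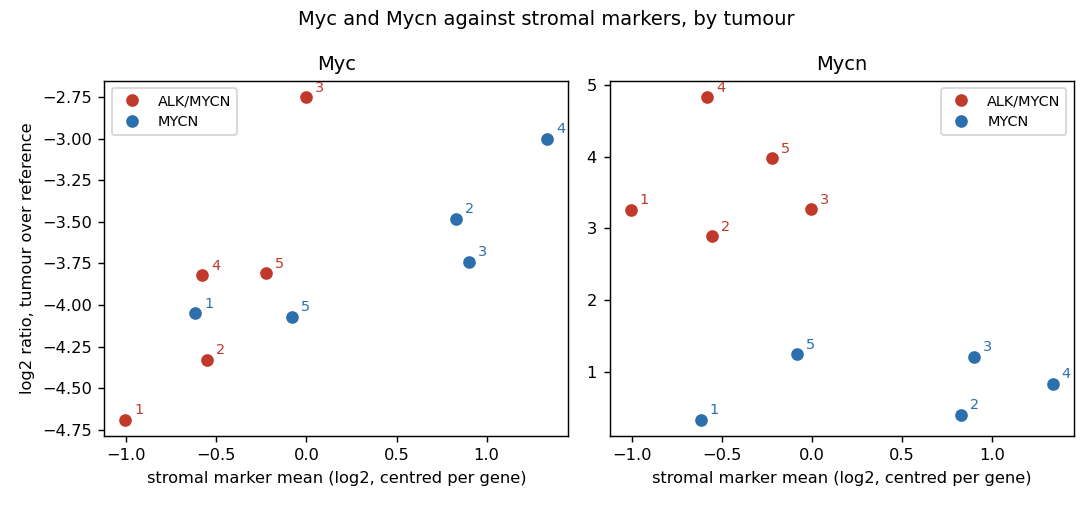
Log2 ratio of tumour over reference of Myc (left) and Mycn (right) against the mean of 35 stromal markers, centred per gene, with 1 point per tumour and tumour numbers beside the points. Myc tends to be higher in tumours with more marker signal (r = 0.68), while for Mycn all ALK/MYCN tumours (red) lie above all MYCN tumours (blue).

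The genes whose profile over the 10 tumours came nearest to that of Mycn were sought among 22180 others by the root mean square difference of centred log2 ratios. Mycn's own profile had a root mean square of 1.53. Nearest were the non-coding RNA 9530059O14Rik at 0.310, the cDNA clone 9330199F22Rik at 0.419, the receptor tyrosine kinase gene Ret at 0.447, Mtus2 at 0.455 and A330050F15Rik at 0.474. Since the measure rewards a group difference of like size, each of the 5 was also higher in ALK/MYCN tumours, by 2.34 to 2.90. For Myc, with its own root mean square of 0.551, the nearest were Serpinb6a at 0.162, an unnamed probe at 0.171, Stxbp3a, Mr1 and Pon2, the last 3 at 0.179, and none of them was called.

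The promoter windows in RefSeq (GRCm38.p6), from 250 bases before to 50 after each gene start, were searched on both strands for the E-box CACGTG and for the E2F motifs TTTCGCGC and TTTGGCGC. They are shown because the network's own E-box occurs in some of its members and because the gene with the largest difference holds only the other motifs. Windows were available for 9 members (11 windows), and Myc had none, so it was not searched. The E-box occurred in Max, Mxd4 and Mnt and in 7.15% of all 32851 windows. TTTGGCGC occurred in 0.514% of windows and TTTCGCGC in 0.323%, and among the members both were found only in Mycn. There TTTGGCGC occurs at 183 and 168 bases before the gene start, and TTTCGCGC, on the opposite strand, overlaps the first of them. The windows printed are Mycn chr12:12941957-12942046 (minus strand), Max chr12:76962229-76962308 (minus), Mnt chr11:74830764-74830843 (plus) and Mxd4 chr5:34187880-34187959 (minus), with the motifs in capitals. A match describes the letters in a window and shows no binding.
Mycn: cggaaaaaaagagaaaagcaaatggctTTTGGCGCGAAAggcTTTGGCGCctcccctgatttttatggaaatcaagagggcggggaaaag
Max: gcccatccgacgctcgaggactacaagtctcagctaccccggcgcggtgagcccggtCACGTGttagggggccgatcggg
Mnt: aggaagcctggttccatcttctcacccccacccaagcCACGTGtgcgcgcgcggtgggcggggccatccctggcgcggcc
Mxd4: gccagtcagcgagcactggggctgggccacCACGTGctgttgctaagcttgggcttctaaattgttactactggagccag

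Genes that work with the network were read through 6 lists, each gene by its brightest kept probe in the same limma fit. Over all 22263 genes read this way 14.0% were higher and 12.0% lower, with a median difference of -0.0036. Of 25 measured cofactors of MYC and MAX, 1 rose and 6 fell, with a median of -0.15. Mycbp2, a ubiquitin ligase of neurons first described as a MYC binding protein, rose by 0.50 ± 0.078 (SE, limma adjusted p = 0.00199), with all ALK/MYCN tumours (1.11 to 1.40) above all MYCN tumours (0.68 to 0.96). The ATPase gene Ruvbl2 fell by 0.43 ± 0.077 and Actl6a, a subunit of chromatin remodellers, by 0.45 ± 0.086. Sin3a, the scaffold of the repressor complex that MXD proteins recruit, fell by 0.32 ± 0.075, but lost its call with median centring (-0.17, limma adjusted p = 0.193), slide as a block (-0.28, adjusted p = 0.0528), spike-in centring (-0.036, adjusted p = 0.727), the stromal covariate (-0.28, adjusted p = 0.0927) and without ALK/MYCN 3, MYCN 2 and MYCN 5 (-0.33, adjusted p = 0.0768). Both Ruvbl2 and Actl6a lost their calls with spike-in centring (-0.17 each, limma adjusted p = 0.185 and 0.23), and Actl6a also with median centring (-0.31, adjusted p = 0.0814). Without ALK/MYCN 3 or without ALK/MYCN 5, 3 cofactors fell. With spike-in centring 7 cofactors were higher and none lower (median 0.13), and with median centring 1 and 1 (median -0.0048). The medians over all 30857 probes were then 0.23 (11753 higher, 1020 lower) and 0.095 (6055 higher, 1713 lower). The sign of this list thus rests on the scaling, while its median stayed below that of all probes. The same array-wide shifts apply to the counts of the other lists under these 2 settings.

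Of 20 genes for the turnover of MYC proteins, 4 rose and 6 fell (median 0.052), while spike-in centring gave 11 and 3, median centring 8 and 3, and the fit without ALK/MYCN 5 gave 3 and 3. The mitotic kinase gene Plk1 fell by 0.68 ± 0.10 and Skp2, a ubiquitin ligase subunit that acts on MYC, by 0.78 ± 0.14 (SE, limma adjusted p = 0.00184 and 0.00441). Skp2 lay between -0.65 and -0.33 in ALK/MYCN and between -0.21 and 0.62 in MYCN tumours, with no overlap. Trim32, a ubiquitin ligase that targets MYC in neural progenitors, rose by 0.42 ± 0.083, though not with the stromal covariate (0.29, adjusted p = 0.0639). Set, an inhibitor of the phosphatase that destabilises MYC, fell by 0.33 ± 0.067, a call lost with median centring (-0.22, adjusted p = 0.0882), with spike-in centring (-0.082, adjusted p = 0.464) and without ALK/MYCN 3, MYCN 2 and MYCN 5 (-0.31, adjusted p = 0.0613). Fbxw7, which marks MYC and MYCN proteins for degradation, differed by 0.47 ± 0.18 and Aurka, which shields MYCN protein from it, by -0.20 ± 0.12, and neither was called (limma adjusted p = 0.0822 and 0.243). Fbxw7 was called with median centring (0.59, adjusted p = 0.0316) and with spike-in centring (0.73, adjusted p = 0.0183), which turned Aurka to 0.049.

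**Figure D5:**
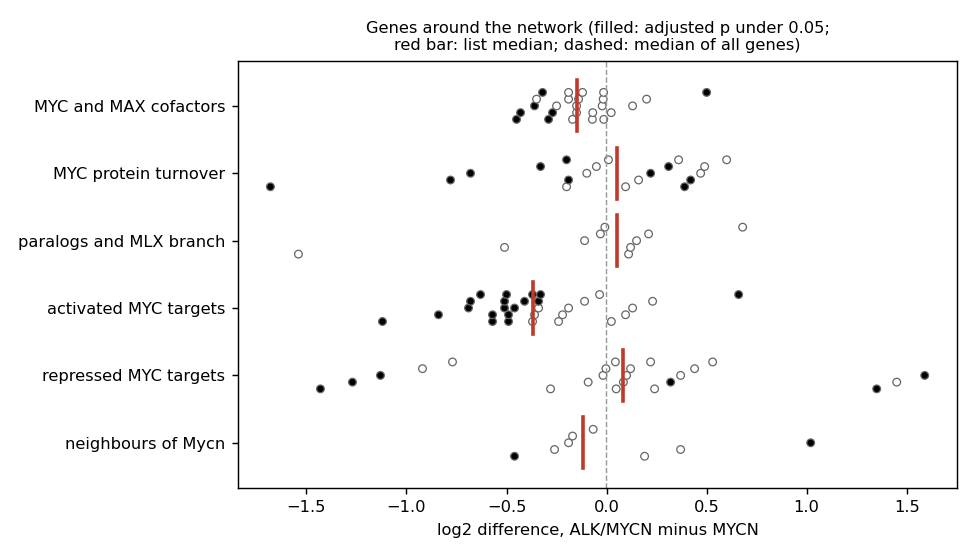
Log2 difference, ALK/MYCN minus MYCN, of each gene in 6 lists around the network. Filled points had a limma adjusted p under 0.05, the red bar is the median of the list and the dashed line the median of all genes at -0.0036. Activated MYC targets lie mostly left of the line, with a median of -0.37.

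Of 30 genes known to be activated by MYC, 17 fell and 1 rose, with a median of -0.37, against 12.0% lower and 14.0% higher among all genes. Per tumour the mean of the 30, centred per gene, was -0.060, -0.13, -0.20, -0.24 and -0.23 in ALK/MYCN tumours 1 to 5 and 0.26, 0.17, 0.13, 0.14 and 0.16 in MYCN tumours 1 to 5. The groups did not overlap in this mean. Rcc1, a chromatin-bound exchange factor, stood between 0.31 and 0.41 in ALK/MYCN and between 0.82 and 1.05 in MYCN tumours, a fall of 0.57 ± 0.064 (SE, limma adjusted p = 5.24e-04). The nucleolar chaperone gene Npm1 fell by 0.51 ± 0.057, the nucleolar methyltransferase gene Fbl by 0.49 ± 0.063 and the ribosome assembly gene Ppan by 0.84 ± 0.11, and of these Fbl lost its call with spike-in centring (-0.21, limma adjusted p = 0.0744). Tfrc, the transferrin receptor gene, was the one that rose, by 0.66 ± 0.16, a call lost as the mean over its probes (0.33, adjusted p = 0.0723) and with the stromal covariate (0.67, adjusted p = 0.0626). With the mean over the probes of each gene 15 of the 30 fell (median -0.35). Ncl (-0.11, limma adjusted p = 0.302) and Pa2g4 (-0.21, adjusted p = 0.0585) then lost their calls, against -0.49 and -0.50 in the fit reported. With the stromal covariate 20 fell and none rose. With median centring 13 fell (median -0.26), without ALK/MYCN 3, MYCN 2 and MYCN 5 likewise 13 fell (median -0.40), and with spike-in centring 8 fell and 3 rose (median -0.12). Over all 30857 probes spike-in centring gave 1020 lower and 11753 higher (median 0.23), and median centring 1713 lower and 6055 higher (median 0.095). Under both settings the list median stayed below that of all probes. An earlier list of MYC targets had been seen to be lower in these tumours when the present one was drawn up, so the count is not independent of that result.

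Of 23 genes known to be repressed by MYC, 3 rose and 3 fell, with a median of 0.084. With the stromal covariate 3 rose and none fell, at a median of 0.42, and with slide as a block the median was -0.021. Pdgfrb, which fell by 1.13 ± 0.34 (SE, limma adjusted p = 0.0372), is itself among the 35 stromal markers. The loss of its call with that covariate (-0.25, adjusted p = 0.321) is therefore partly built in. The 3 that rose there were not the same, since Cdkn1b lost its call and Cebpd gained one (1.35, adjusted p = 0.0344, against 0.10 and 0.911). The median was -0.097 without MYCN 1, -0.065 without MYCN 5, -0.028 without ALK/MYCN 3 and 0.26 without MYCN 4. Scaling of the arrays gave 0.30, where 4 rose and 1 fell, and spike-in centring 0.35, where 5 rose and 2 fell. Ndrg4, expressed in neurons, and Ngfr, a neurotrophin receptor gene of neurons and Schwann cells, rose by 1.59 ± 0.31 and 1.35 ± 0.30 (SE, limma adjusted p = 0.00566 and 0.011), and Ngfr lost its call without ALK/MYCN 3, MYCN 2 and MYCN 5 (1.26, adjusted p = 0.0689). Tgm2 and Thbs1, of extracellular matrix and vessel biology, fell by 1.43 ± 0.29 and 1.27 ± 0.27. Both lost their calls with the stromal covariate (-0.83 and -0.80, limma adjusted p = 0.0504 and 0.0799), and Thbs1 also after scaling of the arrays (-0.86, adjusted p = 0.0572). The cell cycle inhibitor gene Cdkn1b rose by 0.32 ± 0.089, but lost its call with the stromal covariate (0.31, limma adjusted p = 0.115), in scanner-processed signals (0.30, adjusted p = 0.056) and on leaving out ALK/MYCN 4 or 5 or MYCN 1 or 4 alone (0.28 to 0.29, adjusted p between 0.0551 and 0.065), while Cdkn1a, at 0.53 ± 0.29, was called after scaling of the arrays alone (0.89, adjusted p = 0.0402).

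Among the 8 measured neighbours of Mycn on chromosome 12, 1 rose and 1 fell (median -0.12), and 2 fell without ALK/MYCN 2. Ddx1 and Fam49a, the adjoining protein-coding genes, differed by -0.19 ± 0.077 and -0.46 ± 0.11 (SE, limma adjusted p = 0.102 and 0.0146). Ddx1 turned to 0.078 with spike-in centring, and was called after scaling of the arrays (-0.29, adjusted p = 0.039) and with the stromal covariate (-0.32, adjusted p = 0.0288). The call of Fam49a was lost with Cy3 alone (-0.41, adjusted p = 0.05), with spike-in centring (-0.18, adjusted p = 0.264), as the mean over its probes (-0.25, adjusted p = 0.0757) and with the stromal covariate (-0.47, adjusted p = 0.0671). Nbas, next beyond Ddx1, differed by 0.37 ± 0.18 and was called with spike-in centring only (0.65, adjusted p = 0.0305, against 0.169). Trib2, a pseudokinase gene 4 protein-coding genes away, rose by 1.02 ± 0.11 (limma adjusted p = 5.22e-04). Smc6, Rad51ap2, Gen1 and Vsnl1, at -0.26, -0.17, -0.067 and 0.19, were not called. Smc6 was called after scaling of the arrays (-0.36, limma adjusted p = 0.0297) and without ALK/MYCN 2 (-0.32, adjusted p = 0.0251), and Gen1 turned to 0.21 and was called with spike-in centring (adjusted p = 0.0459).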

How the data were processed

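Per the file headers, the authors extracted spot intensity values with Agilent Feature Extraction 10.7.3.1, with probe positions on mm9. The deposited value table holds log2 ratios, which equalled log2 of scanner-processed Cy3 over Cy5 intensity within 5.01e-04, with array medians between -0.186 and -0.035. Tumour RNA carried Cy3 and the reference Cy5 on every array, per the labels, so dye bias cannot be told apart from ratio level but is common to both groups.

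From the deposited intensities, mean signals were corrected for median local background with normexp (offset 50) and loess-normalised within arrays in limma 3.58.1 (R 4.3.3), with control spots at weight 0. Outlier spots (177 to 345 per array) were left out, spots of a probe averaged, and 30857 of 55681 probes kept. Groups were compared with lmFit and eBayes, two-sided, with Benjamini-Hochberg adjustment at 0.05 over kept probes. The limma step was run on simulated data with added changes and independent noise. Those data held no slide or tissue effects, so the run says nothing about such effects here. Arrays correlated at 0.803 to 0.969, and none repeated another. Slides were read from the file headers. Alternatives replaced loess by centring each array on its median or on its spike-in spots, scaled the arrays to one spread, used Cy3 alone or scanner-processed signals, changed probe filter, probe summary or variance model, added slide, replicate number or the mean of 35 stromal markers to the fit, and left out tumours. The stromal mean ran from -1.01 to -0.0046 in ALK/MYCN and from -0.62 to 1.34 in MYCN tumours, so it partly follows the group. A call can be lost with this covariate while the difference keeps its size, as for Tfrc (0.66 without and 0.67 with it). Other differences shrank with it, as for Mxd1 probe 2 (0.55 without and 0.32 with it), Tgm2 (-1.43 and -0.83) and Thbs1 (-1.27 and -0.80). What stroma contributes to the lost calls was not tested. ALK/MYCN 3, MYCN 2 and MYCN 5 were left out together because an earlier analysis found markers of other tissues in them. By the marker lists used here that fit is not free of other tissues. MYCN 4, with adipocyte markers at 3.89, and MYCN 1, with skeletal muscle markers at 2.18, stayed in. MYCN 5, which was left out, stood at 0.89 and -0.26 in these lists.

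Members and lists were chosen with earlier results of these data known. Named are all member probes, up to 4 called genes of smallest p per list, the neighbours of Mycn and the 5 genes nearest in profile to Mycn and to Myc. Cdkn1a, Cdkn1b, Tfrc, Fbxw7, Aurka, Ncl, Pa2g4, Pdgfrb and Cebpd were named after their values were seen. Bmyc, Mlxipl and Tcfl5, none of them called, were also named outside these rules. The printed bases of each sequence are those of the array files or of RefSeq.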

Additional observations from a re-analysis of the deposited data

Results flagged for a closer look

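Of 22 sets of 5 tumours (11 kept probes in each group), 1 held a tumour far from the others by Dixon's criterion, which chance alone gives in about 1 of 20 sets. Mxd1 probe 2 read 0.90 in ALK/MYCN 1, while the other ALK/MYCN tumours read between 0.41 and 0.55. Without ALK/MYCN 1 the rise of this probe was 0.47, and it was still called (limma adjusted p = 0.0284). ALK/MYCN 1 also had the lowest mean of the stromal markers, at -1.01, and the part of these markers in its value was not tested.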

How the results depend on the processing

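Over 25 alternatives Mycn (2.54 to 3.30) and Mxd3 (-0.58 to -0.21) kept their direction and call. The calls among members were 1 higher, in place of 2, with slide as a block, with the stromal covariate and without ALK/MYCN 3, MYCN 2 and MYCN 5, in each case through Mxd1 probe 2. Leaving out 1 tumour gave 2 to 3 members higher and 1 lower, and over the array 3098 to 3938 higher and 2229 to 3207 lower, the lowest of these without ALK/MYCN 5. Array counts of 4215 higher and 3469 lower moved to 1713 lower after centring on the median, 11753 and 1020 after centring on spike-ins, 2652 and 1904 with the stromal covariate, and 1945 lower without ALK/MYCN 3, MYCN 2 and MYCN 5. Activated MYC targets were 8 lower and 3 higher with spike-in centring, 15 lower and 0 higher as the mean over probes, and 20 lower and 0 higher with the stromal covariate. The cause was not tested.

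Sign changes occurred only in members that were not called in the fit reported. Mxd4 probe 1 turned to 0.011 in scanner-processed signals, 0.14 with median centring, 0.28 with spike-in centring, 0.096 after scaling of the arrays, 0.015 with Cy3 alone, 0.045 as the mean over probes and 0.42 with the stromal covariate. Mxd4 probe 2 turned to -0.015 without ALK/MYCN 3, MYCN 2 and MYCN 5. Mxd1 probe 1 turned to 0.060 with median centring, 0.20 with spike-in centring, 0.041 after scaling and 0.037 with Cy3 alone, and the mean of both Mxd1 probes was 0.24 and called (limma adjusted p = 0.0399). Mnt turned to -0.019 in scanner-processed signals, -0.065 after scaling and -0.013 with Cy3 alone. Myc turned to 0.071 with spike-in centring, 0.36 after scaling and 0.47 with the stromal covariate, and Mga to -0.049 after scaling and -0.11 with the covariate. Leaving out 1 tumour gave -0.12 to 0.14 for Mxd4 probe 1, -0.060 to 0.16 for Mnt, -0.49 to -0.011 for Myc and -0.0088 to 0.13 for Mycl1.

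With replicate numbers as a block (replicate block), 3340 probes were higher and 2651 lower, Mycn was at 2.85 (limma adjusted p = 0.00657), and the same number of member probes were called, 2 higher and 1 lower, while Cdkn1b lost its call (0.32, adjusted p = 0.0608). The numbers do not pair the tumours: same-numbered tumours correlated at 0.301, -0.0267, -0.0972, -0.071 and -0.0863 in their deviations from the group means. Signal over background limits Mxi1, which could not be followed.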

Other observations

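Of 10 measured paralogs and relatives of the network's genes none was called (limma with Benjamini-Hochberg adjustment; 2 had an unadjusted p under 0.05, Tcfl5 and Mlxipl, 5 were higher with spike-in centring, and leaving out 1 tumour gave 0 to 1 higher and 0 to 2 lower). Bmyc, a rodent relative of Myc that lacks its DNA-binding part, lay between 2.04 and 2.46 in ALK/MYCN and between 2.00 and 2.25 in MYCN tumours, and differed by 0.15 ± 0.088 (SE, limma adjusted p = 0.252), with -0.18 after scaling of the arrays and a call with spike-in centring (0.42, adjusted p = 0.0203). Mlxipl, the glucose-responsive factor of liver and fat, was the most scattered. It read -0.23, -0.17, 1.80, -0.24 and -0.083 in ALK/MYCN tumours 1 to 5, and 0.19, 2.24, 0.50, 3.35 and 2.51 in MYCN tumours 1 to 5, a difference of -1.54 ± 0.64 (SE, limma adjusted p = 0.104). Mlxipl was called without ALK/MYCN 3 (-1.94, adjusted p = 0.0443) or MYCN 1 (-1.94, adjusted p = 0.0475). Adipocyte markers had list means of -2.19, -1.78, 2.50, -1.29 and -2.07 in ALK/MYCN tumours 1 to 5, and of -1.21, -0.21, 1.47, 3.89 and 0.89 in MYCN tumours 1 to 5, and their part in the Mlxipl values was not tested. Tcfl5 differed by 0.68 ± 0.24 (SE, limma adjusted p = 0.0602), and was called with spike-in centring (0.86), Cy3 alone (0.85), scanner-processed signals (2.39), without ALK/MYCN 3 (0.78), without MYCN 2 (0.81) and without ALK/MYCN 3, MYCN 2 and MYCN 5 (1.03).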
